A study of Mus musculus with 6 samples.

Results

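Skeletal muscle genes were followed in 6 subcutaneous tumours of C57BL/6J mice by bulk RNA-seq. The 41 genes were taken by name from the 34745 genes of the count table, as known components of the sarcomere, of muscle calcium handling and of muscle energy metabolism, with 3 regulators of muscle tissue, and all 41 were found. The HCD tumours (n = 3) came from mice fed a high cholesterol diet and the ND tumours (n = 3) from mice fed a normal diet. In both groups the implanted cells are given as B16F10, a mouse melanoma line, placed under the skin of the right flank, and the whole tumour was used for RNA, so muscle, fat and skin of the host may be part of the material. The labels number the tumours within a diet and do not say more on how the samples were separated, so p-values here speak to the variation among these 6 samples alone, which may be technical. Age, sex and time on the diet are not given in the sources used here.

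Library totals ran from 20351637 to 26228074 counts, and the TMM scaling factors lay between 0.979 and 1.02. A count of 3 in 1 library, the most that a count of 0 allows, was worth 0.114 to 0.146 CPM (counts scaled to a common library size), a limit that covers counting error only. Of 8 pigment cell markers checked against the melanoma label, 4 (Tyr, Dct, Mlana and Oca2, genes of pigment synthesis and pigment cells) had a count of 0 in all 6 libraries. Tyrp1 and Sox10 had 0.435 CPM at most. Mitf, the master regulator of pigment cells, had 4.83 to 10.1 CPM in HCD tumours and 3.53 to 6.63 CPM in ND tumours, and Pmel, a pigment granule protein, 0.532 to 0.965 CPM in HCD tumours and 0.437 to 0.795 CPM in ND tumours. Albumin (Alb) lay between 2977 and 4370 CPM, and alpha-fetoprotein (Afp), an oncofetal liver protein, between 464 and 858 CPM. The other hepatocyte markers were Hnf4a (137 to 218 CPM), Apoa1 (46.1 to 97.9 CPM) and Ttr (6.85 to 15.5 CPM). Most of these pigment cell and hepatocyte values do not match the melanoma label, and the identity of the tumours was not tested.

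Skeletal muscle fibres contract through the sarcomere, in which myosin thick filaments pull on actin thin filaments when calcium, released from the sarcoplasmic reticulum, binds the troponin complex. Fast and slow fibres use different genes for the same parts, among them the myosin heavy chains, the troponins and the myosin binding proteins. Many of these genes are switched on by the myogenic factors MyoD and myogenin, which bind E-boxes, together with MEF2 proteins and with serum response factor, which binds CArG boxes.

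Promoter windows of 250 bases before to 50 bases after the start were present in the RefSeq table (GRCm38.p6) for 33 of the 41 genes. Windows of 4 genes are shown as examples of contractile and fibre type genes, picked without a fixed rule. They are the fast myosin Myh4 (chr11:67237562-67237861, plus strand), the actin Acta1 (chr8:123894726-123895025, minus strand), the slow myosin Myh7 (chr14:54994577-54994876, minus strand) and the fast myosin Myh2 (chr11:67170777-67171076, plus strand). Capitals mark matches to the E-box CAGCTG, to the MEF2 motif or to the CArG motif.
Myh4: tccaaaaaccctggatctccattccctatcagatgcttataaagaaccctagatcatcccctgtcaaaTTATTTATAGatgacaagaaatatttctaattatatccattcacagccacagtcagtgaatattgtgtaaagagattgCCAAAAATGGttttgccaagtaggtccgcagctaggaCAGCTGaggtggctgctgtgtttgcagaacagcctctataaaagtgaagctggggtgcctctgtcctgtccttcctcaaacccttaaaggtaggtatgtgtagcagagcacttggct
Acta1: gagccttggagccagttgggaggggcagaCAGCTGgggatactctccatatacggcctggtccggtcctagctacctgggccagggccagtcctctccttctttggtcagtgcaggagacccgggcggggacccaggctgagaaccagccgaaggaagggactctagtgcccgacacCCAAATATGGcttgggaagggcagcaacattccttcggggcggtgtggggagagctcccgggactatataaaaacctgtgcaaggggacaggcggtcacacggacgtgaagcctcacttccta
Myh7: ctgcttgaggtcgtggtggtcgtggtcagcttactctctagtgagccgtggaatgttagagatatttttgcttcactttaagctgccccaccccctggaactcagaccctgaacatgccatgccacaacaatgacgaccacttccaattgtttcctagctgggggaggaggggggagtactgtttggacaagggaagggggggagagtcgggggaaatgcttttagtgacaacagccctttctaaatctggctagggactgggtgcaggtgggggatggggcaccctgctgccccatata
Myh2: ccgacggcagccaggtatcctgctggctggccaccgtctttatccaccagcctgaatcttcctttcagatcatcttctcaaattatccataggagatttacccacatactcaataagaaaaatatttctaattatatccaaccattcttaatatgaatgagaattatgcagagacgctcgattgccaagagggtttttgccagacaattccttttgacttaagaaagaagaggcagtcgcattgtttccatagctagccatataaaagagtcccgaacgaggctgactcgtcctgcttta
The Myh4 window held 1 match to each of the 3 motifs, in the order MEF2, CArG and E-box towards the start. The Acta1 window held 1 E-box and 1 CArG match. In the windows of Myh7 and Myh2 these letters did not occur, which says only that they are not in these windows. Myh7 had a second window (chr14:54994500-54994799, minus strand), not shown, which held no match either.

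Only the listed strand of each window was searched. Each of the motifs reads the same on both strands, so a search of the other strand would give the same matches. CAGCTG is one form of the general E-box CANNTG, so the counts of the 2 motifs overlap. CAGCTG occurred in the windows of 19 of the 33 muscle genes (57.6%), against 18.3% of all 27025 genes with a window. CANNTG occurred in 29 of the 33 (87.9%), against 74.99% of all genes. The MEF2 motif was present in 6 muscle genes (18.2%, namely Myh1, Myh4, Pgam2, Pvalb, Ttn and Xirp2), against 3.70% of all genes. The CArG motif was present in 3 (9.09%, namely Acta1, Ldb3 and Myh4), against 1.81% of all genes. These matches describe the letters of the windows and do not show that a factor was bound.

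Muscle RNA was high in 1 tumour of each diet and lower in the remaining tumours, so it did not separate the diets. With n = 3 per diet this does not show that the diet had no effect. The 41 genes summed to 4212, 591 and 213 CPM in HCD 1, HCD 2 and HCD 3, against 173, 3422 and 206 CPM in ND 1, ND 2 and ND 3. HCD 1 and ND 2 stood apart at the top, HCD 2 was in between, and the groups overlapped. The highest library exceeded the lowest 24.4-fold, and in HCD 1 the 41 genes took 0.429% of all counts. The mean was 1672 ± 2208 CPM in HCD tumours and 1267 ± 1867 CPM in ND tumours (SD, n = 3 each), a ratio of 1.32, a difference smaller than the spread within each diet. Without HCD 1 the ratio was 0.317 and without ND 2 it was 8.83, and without ND 1 or ND 3 it was 0.922 and 0.930. In bulk tissue, fewer cells of a type and less RNA per cell cannot be told apart.

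The split was shared by nearly all of the genes. For 37 of the 41, the levels of HCD 1 and ND 2 both exceeded those of the other 4 libraries. Among the 35 genes that passed the filter on low counts this held for 33, while it held for 6.55% of all 15539 genes tested. These shares describe the split and do not test it, because the genes were chosen with earlier results known. Some of the 35 passed the filter only through HCD 1, HCD 2 and ND 2. Trim63, for example, had counts of 320, 16 and 1 in the HCD tumours, against 0, 135 and 1 in the ND tumours. The exceptions among the 41 were Myh2, Myh7, Tnnc1 and Cox8b, and the 37 include Tnnc2, with counts of 2 in HCD 1 and ND 2 and of 0 elsewhere. HCD 2 came next in 33 of the 37. HCD 1 held the highest level of 30 genes and ND 2 that of 11. The median gene reached in HCD 2 10.4% and in HCD 3 1.27% of its level in HCD 1. In ND 1 it reached 2.05% and in ND 3 3.87% of its level in ND 2. No gene had a count of 0 in HCD 1 or ND 2, whereas 1, 3, 6 and 2 genes had none in HCD 2, HCD 3, ND 1 and ND 3.

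**Figure D1:**
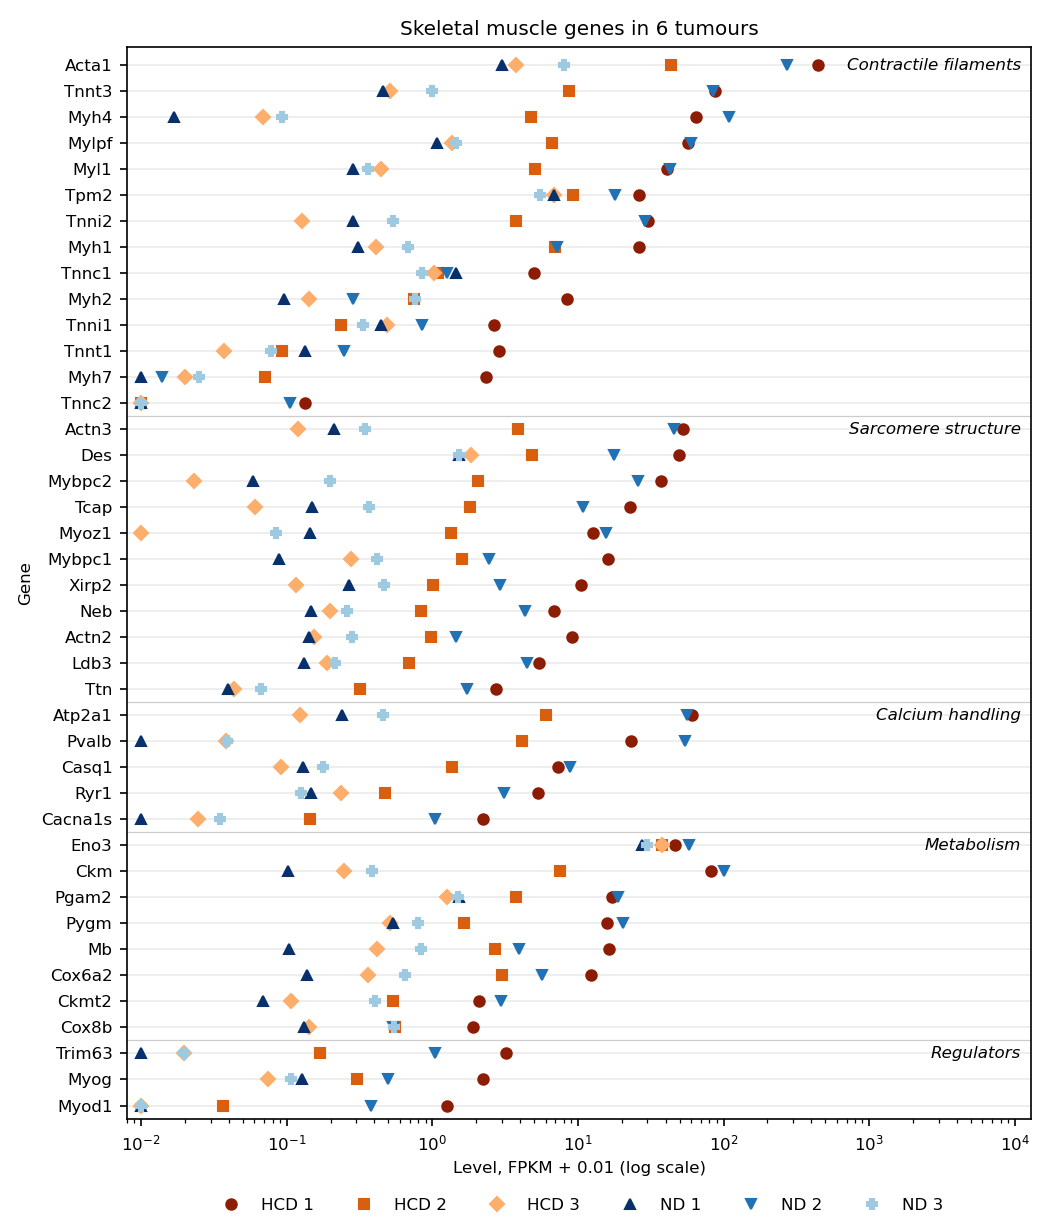
Level of each of the 41 skeletal muscle genes (rows, grouped by role) in each of the 6 tumours, as FPKM + 0.01 on a log scale, with 1 point per library. HCD 1 and ND 2 lie at the right for 37 of the 41 genes, HCD 2 mostly follows, and Eno3 and Tpm2 have the narrowest ranges among the highly expressed genes.

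The 14 contractile filament genes summed to 2035, 263 and 58.0 CPM in the HCD tumours 1 to 3, against 55.5, 1809 and 64.2 CPM in the ND tumours 1 to 3. Acta1, the skeletal muscle alpha-actin of the thin filament, had the highest mean level per length of all 41 genes. Its FPKM (counts per gene length and library total) was 448, 43.5 and 3.77 in HCD 1, HCD 2 and HCD 3, against 3.02, 275 and 7.95 in ND 1, ND 2 and ND 3. The 2 high libraries were 1 of each diet, and the groups overlapped. The fitted log2 fold change of Acta1, HCD over ND, was 0.78 ± 1.86 (SE), with an adjusted p of 0.934 by edgeR's quasi-likelihood test with Benjamini-Hochberg adjustment. Tnnt3, the fast troponin T that anchors troponin to tropomyosin, showed 87.3, 8.61 and 0.505 FPKM in the HCD tumours, against 0.446, 84.2 and 0.989 FPKM in the ND tumours. Its levels in HCD 1 and ND 2 were close, and its log2 fold change was 0.15 ± 1.96 (SE). The fast light chains behaved alike, Mylpf (regulatory) reaching 57.0 FPKM in HCD 1 and 59.7 in ND 2, and Myl1 (essential) 41.01 and 43.0. Tpm2, a tropomyosin also found in smooth muscle, kept 5.51 to 9.24 FPKM in the 4 other libraries, against 26.1 FPKM in HCD 1 and 17.9 FPKM in ND 2.

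Structural genes of the sarcomere showed the widest separation of the libraries after the calcium handling genes and the regulators. The 11 genes summed to 1393, 139 and 23.5 CPM in HCD 1, HCD 2 and HCD 3, against 21.4, 776 and 34.8 CPM in ND 1, ND 2 and ND 3. Actn3, the alpha-actinin of the Z-disc of fast fibres, had 52.6, 3.88 and 0.110 FPKM in the HCD tumours, against 0.202, 45.8 and 0.336 FPKM in the ND tumours. Des, the intermediate filament desmin that ties Z-discs together, had 49.1, 4.81 and 1.84 FPKM in the HCD tumours, against 1.52, 17.8 and 1.52 FPKM in the ND tumours. Both genes were high in HCD 1 and ND 2, and neither separated the diets. Their log2 fold changes were 0.27 ± 2.06 (SE, adjusted p = 0.979) for Actn3 and 1.39 ± 1.38 (SE, adjusted p = 0.861) for Des. The giant proteins followed the same order of the highest libraries, with Ttn (titin, the spring of the sarcomere) at 2.72 FPKM in HCD 1 and 1.71 in ND 2, and Neb (nebulin, the thin filament ruler) at 6.84 and 4.29. Actn2, the alpha-actinin of all fibre types, was less even, with 9.03 FPKM in HCD 1 and 1.45 in ND 2. Xirp2 (an actin-binding protein of the sarcomere's edge, 10.5 and 2.90 FPKM in HCD 1 and ND 2), Tcap (the titin cap, 22.8 and 10.9) and Ldb3 (a Z-disc scaffold, 5.39 and 4.48) were also highest in HCD 1. The exception was Myoz1, a calcineurin-binding Z-disc protein of fast fibres, with 12.8 FPKM in HCD 1 and 15.5 FPKM in ND 2.

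The 5 calcium handling genes summed to nearly equal levels in the 2 high libraries, at 389 CPM in HCD 1 and 387 CPM in ND 2. The 4 other libraries had 41.7 CPM (HCD 2), 4.53 CPM (HCD 3), 3.49 CPM (ND 1) and 4.32 CPM (ND 3). Atp2a1, the calcium pump SERCA1 of fast fibres, had 60.6, 5.98 and 0.114 FPKM in the HCD tumours, against 0.231, 56.2 and 0.448 FPKM in the ND tumours. Pvalb, the calcium buffer parvalbumin, had 23.2, 4.12 and 0.0284 FPKM in the HCD tumours, against 0, 54.4 and 0.0287 FPKM in the ND tumours. Pvalb was thus higher in ND 2 than in HCD 1, the reverse of most genes, while Atp2a1 was close to equal in both. The fitted log2 fold changes were 0.21 ± 2.05 (SE, adjusted p = 0.984) for Atp2a1 and -1.01 ± 2.12 (SE, adjusted p = 0.922) for Pvalb, the lowest of the tested muscle genes. Casq1, the calcium store protein of the reticulum, had 7.29 FPKM in HCD 1 and 8.86 FPKM in ND 2. Ryr1, the calcium release channel, had 5.32 and 3.09 FPKM, and Cacna1s, its voltage sensor, 2.21 and 1.03 FPKM in the same libraries. Exons of Atp2a1 share 21.9% of their bases with Rabep2 on the opposite strand, and the strand setting of the counting is not given in the sources used here.

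Metabolic genes were the group whose sum varied least, and counts of Eno3 made up most of that sum in the libraries of low muscle content. The 8 genes summed to 375, 146 and 126 CPM in HCD 1, HCD 2 and HCD 3, against 92.3, 444 and 102 CPM in ND 1, ND 2 and ND 3. Eno3, the muscle form of the glycolytic enzyme enolase, had 46.1, 37.9 and 37.9 FPKM in the HCD tumours, against 27.4, 57.9 and 30.0 FPKM in the ND tumours. Eno3 stayed at 27.4 FPKM or more in libraries where most other muscle genes were near 0, and its log2 fold change was 0.07 ± 0.27 (SE, adjusted p = 0.960). Ckm, the muscle creatine kinase that buffers ATP, had 81.4, 7.51 and 0.236 FPKM in the HCD tumours, against 0.0927, 100.2 and 0.377 FPKM in the ND tumours. Ckm was high in the same 2 libraries as Acta1, but higher in ND 2, with a log2 fold change of -0.19 ± 2.12 (SE, adjusted p = 0.986). Pygm (glycogen phosphorylase, 15.8 FPKM in HCD 1 and 20.5 in ND 2), Pgam2 (phosphoglycerate mutase, 17.0 and 18.9) and Ckmt2 (mitochondrial creatine kinase, 2.08 and 2.95) were likewise higher in ND 2. Mb, the oxygen store myoglobin, went the other way, with 16.3 FPKM in HCD 1 and 3.95 in ND 2. Of its exon bases, 27.6% overlap another gene, Gm49540, which is not among the genes counted. Cox6a2 and Cox8b, the muscle and heart forms of cytochrome oxidase subunits, had 12.3 and 1.90 FPKM in HCD 1 and 5.66 and 0.527 FPKM in ND 2.

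The 3 regulators were low, and their summed level spanned the widest range, although its lowest values are worth only 3 to 4 counts. They summed to 21.0, 1.26 and 0.146 CPM in HCD 1, HCD 2 and HCD 3, against 0.179, 6.51 and 0.194 CPM in ND 1, ND 2 and ND 3. Trim63, the ubiquitin ligase MuRF1 known for its role in muscle atrophy, had 3.18, 0.158 and 0.00967 FPKM in the HCD tumours, against 0, 1.04 and 0.00981 FPKM in the ND tumours. Its log2 fold change was 1.62 ± 1.94 (SE, adjusted p = 0.882). Myog, the myogenic factor myogenin, had 2.23, 0.295 and 0.0640 FPKM in the HCD tumours, against 0.117, 0.485 and 0.0973 FPKM in the ND tumours. Myod1, the factor MyoD, reached 1.25 FPKM in HCD 1 and 0.370 FPKM in ND 2, and had counts of 0 in HCD 3, ND 1 and ND 3. Myog and Myod1 did not pass the filter on low counts. All 3 were highest in HCD 1, with ND 2 next.

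The 2 libraries of high muscle content differed in their fibre type genes. Myh4 (myosin IIb), the fast type, had 64.5, 4.79 and 0.0592 FPKM in HCD 1, HCD 2 and HCD 3, against 0.00677, 109 and 0.0825 FPKM in ND 1, ND 2 and ND 3. Myh7, the slow type, had 2.32, 0.0610 and 0.00993 FPKM in the HCD tumours, against 0, 0.00396 and 0.0151 FPKM in the ND tumours. Myh4 was highest in ND 2 and Myh7 in HCD 1, and the groups overlapped for both. In counts, which are not scaled by length, Myh4 made up most of the myosin heavy chain counts in ND 2, whereas HCD 1 held a mixture that included the slow myosin Myh7. Among the counts of Myh4, Myh1, Myh2 and Myh7, the share of Myh4 was 60.2% in HCD 1 (95% exact Clopper-Pearson interval 59.4 to 61.0%, 14095 counts) and 92.9% in ND 2 (92.5 to 93.3%, 19942 counts). Myh1 (myosin IIx) took 27.3% (26.6 to 28.1%) in HCD 1 and 6.81% (6.47 to 7.17%) in ND 2. Myh2 (myosin IIa) took 9.20% (8.73 to 9.69%) in HCD 1 and 0.276% (0.208 to 0.359%) in ND 2. Myh7 took 3.22% (2.94 to 3.53%) in HCD 1 and 0.00501% (0.000127 to 0.0279%) in ND 2. These intervals cover counting error only, and with 1 library each the differences have no replicate check.

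In the tumours of lower muscle content the mix leaned to Myh1 and Myh2. HCD 2 had 35.6% Myh4 (33.4 to 37.9%), 57.2% Myh1 (54.9 to 59.5%), 6.48% Myh2 (5.38 to 7.73%) and 0.676% Myh7 (0.350 to 1.18%) among 1774 counts. HCD 3 had 91 such counts, with Myh1 at 65.9% (55.3 to 75.5%) and Myh4 at 8.79% (3.87 to 16.6%). ND 1 had 65, with Myh1 at 75.4% (63.1 to 85.2%) and Myh4 at 1.54% (0.0389 to 8.28%). ND 3 had 230 counts, of which Myh2 took 50.9% (44.2 to 57.5%) and Myh4 4.78% (2.41 to 8.40%). Myh7 had 2, 0 and 3 counts in HCD 3, ND 1 and ND 3, and the interval for ND 1 reaches up to 5.52%. Myh2 (bases 67171027 to 67197517), Myh1 (67200052 to 67224575) and Myh4 (67238029 to 67260446) lie side by side on chromosome 11 (GRCm38, GENCODE M21) and are highly similar copies, so how their shared reads were counted is uncertain. Myh7 lies on chromosome 14 (54970684 to 54994626).

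**Figure D2:**
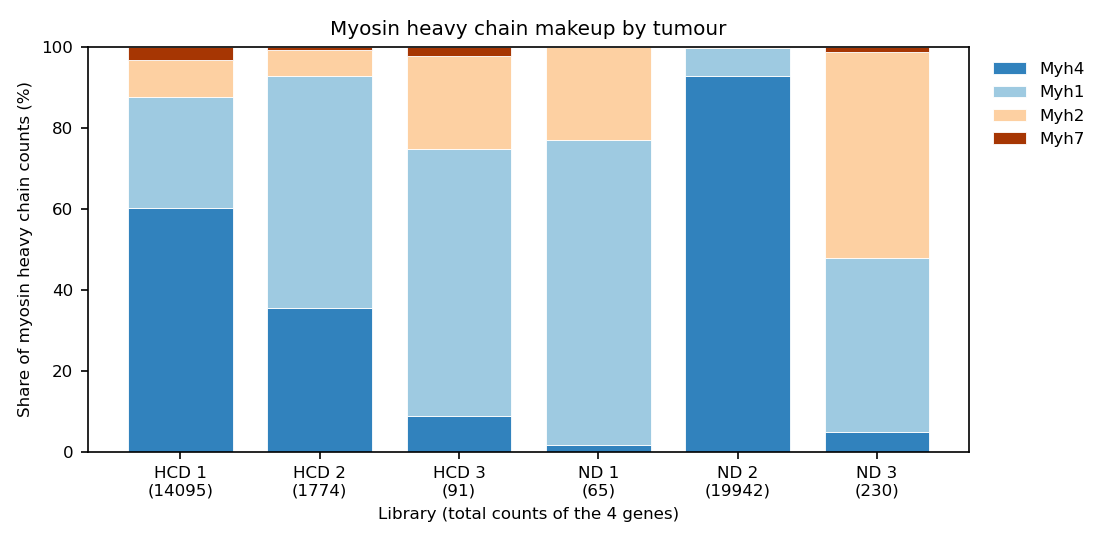
Share (%) of the counts of Myh4, Myh1, Myh2 and Myh7 that each gene took in each tumour, with the total of the 4 genes under each bar. Myh4 takes 60.2% in HCD 1 and 92.9% in ND 2, while Myh1 and Myh2 together take most counts in HCD 3, ND 1 and ND 3, which have 91, 65 and 230 counts.

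For troponin I, troponin T and myosin binding protein C, the slow forms were higher in HCD 1 than in ND 2. Unlike Myh4, the fast forms were not higher in ND 2. Their ratio of HCD 1 to ND 2 in CPM was 1.04 for Tnni2, 1.03 for Tnnt3 and 1.42 for Mybpc2. Tnni2, the fast inhibitory troponin I, had 30.1, 3.77 and 0.116 FPKM in the HCD tumours, against 0.274, 28.7 and 0.523 FPKM in the ND tumours. Tnni1, its slow counterpart, had 2.63, 0.227 and 0.477 FPKM in the HCD tumours, against 0.436, 0.840 and 0.326 FPKM in the ND tumours. The fast form was close in HCD 1 and ND 2, and the slow form was 3.10-fold higher in HCD 1 on the CPM scale. Tnnt1, the slow troponin T, had 2.86, 0.0830 and 0.0270 FPKM in the HCD tumours, against 0.124, 0.237 and 0.0685 FPKM in the ND tumours. Mybpc2, the fast form of the thick filament protein, had 37.0, 2.06 and 0.0132 FPKM in the HCD tumours, against 0.0484, 25.7 and 0.188 FPKM in the ND tumours. Mybpc1, the slow form, had 16.0, 1.60 and 0.265 FPKM in the HCD tumours, against 0.0782, 2.46 and 0.407 FPKM in the ND tumours. Both slow genes were highest in HCD 1, by 11.9-fold over ND 2 for Tnnt1 and 6.42-fold for Mybpc1 on the CPM scale.

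Troponin C did not give such a pair. Tnnc1, the slow and cardiac calcium sensor troponin C, had 4.97, 1.08 and 1.02 FPKM in the HCD tumours, against 1.43, 1.25 and 0.844 FPKM in the ND tumours. It was highest in HCD 1, and the other 5 libraries lay between 0.844 and 1.43 FPKM. Tnnc2, the fast troponin C, had counts of 2, 0 and 0 in the HCD tumours, against 0, 2 and 0 in the ND tumours. Of the exon bases of Tnnc2, 74.0% are shared with Ube2c on the opposite strand, a cell cycle gene at 101 to 119 CPM in the HCD tumours and 92.5 to 111 CPM in the ND tumours. Whether this overlap lowered the count of Tnnc2 was not tested.

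Across all 13 fast genes the ratio of HCD 1 to ND 2 in CPM had a median of 1.04, and 8 of the 13 were above 1, among them Tnnc2, which rests on 2 counts in each library (1.27, counting interval 0.0924 to 17.6). It ran from 0.422 for Pvalb to 30.1 for Myh2. Across the 5 slow genes the median was 6.42, and 5 of 5 were above 1, from 3.10 for Tnni1 to 579 for Myh7. The value of Myh7 rests on 454 counts in HCD 1 and 1 count in ND 2, and its counting interval runs from 103 to 22906. For all 41 genes the median ratio was 1.58. Fast genes other than Myh2 that were more abundant in HCD 1 included Myh1 (3.61-fold), whereas Myh4 had a ratio of 0.584.

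**Figure D3:**
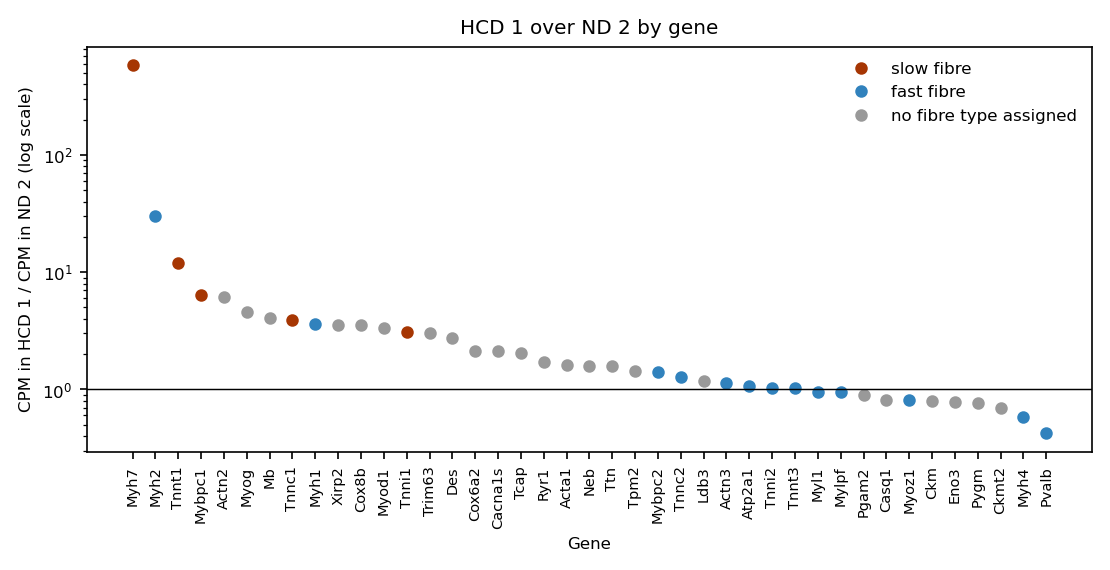
Ratio of the level in HCD 1 to that in ND 2 (CPM, log scale) for each of the 41 genes, coloured by fast, slow or other fibre type, with 1 library on each side of the ratio. The 5 slow genes lie between 3.10 and 579, while the 13 fast genes have a median of 1.04.

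Summed per length, the fast genes had 501, 53.9 and 3.27 FPKM in HCD 1, HCD 2 and HCD 3, against 3.07, 530.0 and 5.87 FPKM in ND 1, ND 2 and ND 3. The slow genes had 28.7, 3.05 and 1.802 FPKM in the HCD tumours, against 2.07, 4.79 and 1.66 FPKM in the ND tumours. The fast over slow ratio was 17.4, 17.7 and 1.81 in the HCD tumours, against 1.48, 111 and 3.53 in the ND tumours. ND 2 stood apart at the top, HCD 1 and HCD 2 were close although their muscle sums differed, and the 3 libraries of lowest muscle content had the lowest ratios. The mean ratio of HCD over that of ND tumours was 0.319, and the groups overlapped. Without ND 2 it was 4.90, so 1 library turned its direction. Tnni1 and Tnnc1 held most of the slow sum in those 3 libraries. Without them, a choice made after seeing the data, the ratio was 23.7, 30.9 and 10.8 in the HCD tumours, against 15.2, 196 and 12.0 in the ND tumours.

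The question of the study's design is whether the diet changed RNA levels in the tumours, and for muscle genes no change passed the test. Of the 41 genes 35 passed the filter on low counts, and 0 of them were called higher or lower in HCD tumours at an adjusted p under 0.05 by edgeR. The background was the same, with 0.0% of the 15539 genes tested called higher and 0.0% called lower. At an unadjusted p under 0.05 the count of muscle genes was 0, against 5.3% of all genes. No tested muscle gene had all HCD tumours above all ND tumours, against 4.75% of all genes, and none had all HCD tumours below, against 6.36%. DESeq2 gave no p-value for 4 of the 35 (Myh4, Mybpc2, Pygm and Ryr1). It called 0 of the other 31, against 0.0515% of all genes, and 1 gene (Myh2) had an unadjusted p under 0.05, against 4.89% of all genes.

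The fitted directions were mostly positive without passing the test. The log2 fold change was positive for 27 of the 35 and negative for 8, where 53.0% of all genes were positive. Its median was 0.57 over the 35 genes and 0.01 over all genes tested. Adjusted p-values lay between 0.839 and 0.998. Myh2, the fast oxidative myosin, had the smallest unadjusted p (0.0700) and the highest log2 fold change, 3.05 ± 1.42 (SE, adjusted p = 0.839). Its FPKM was 8.40, 0.742 and 0.132 in the HCD tumours, against 0.0865, 0.277 and 0.748 in the ND tumours. HCD 1 was far above the rest, and HCD 2 and ND 3 were level. By role the median log2 fold change was 0.46 for 11 contractile, 0.75 for 11 structural, 0.21 for 5 calcium handling and -0.02 for 7 metabolic genes. It was 0.17 for 12 tested fast genes, of which 9 were positive, and 1.03 for the 3 tested slow genes (Tnni1, Tnnc1 and Mybpc1), all positive. The 6 untested genes were Myh7, Tnnt1, Tnnc2, Myog, Myod1 and Cox8b.

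For most of the genes the direction depended on whether HCD 1 or ND 2 was in the comparison. Without HCD 1, the log2 fold change was negative for 33 of 35 tested genes (the exceptions were Myh2 and Myh1) and the median was -1.90, while 51.6% of all genes were positive. Without ND 2, it was positive for 36 of 36, against 54.1% of all genes, and the median was 4.40. In that comparison 17 of the 36 genes had an unadjusted p under 0.05, against 8.53% of all genes, and the smallest adjusted p was 0.559, where 0.0126% of all genes were called. Without both libraries, an option added after seeing the data, 29 genes were tested, 27 were positive, against 53.6% of all genes, and the median was 1.66. There 4 of the 29 had an unadjusted p under 0.05, against 6.2% of all genes, and the smallest adjusted p was 0.680. In this last comparison 2 tumours of each diet are left, among them HCD 2, which had come next after HCD 1 and ND 2 in 33 genes. Omitting HCD 2, HCD 3, ND 1 or ND 3 alone gave medians of 1.17, 1.32, 0.21 and 0.22 in that order, and without HCD 3 an unadjusted p under 0.05 was reached by 4 of 39 genes, against 6.23% of all genes.

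**Figure D4:**
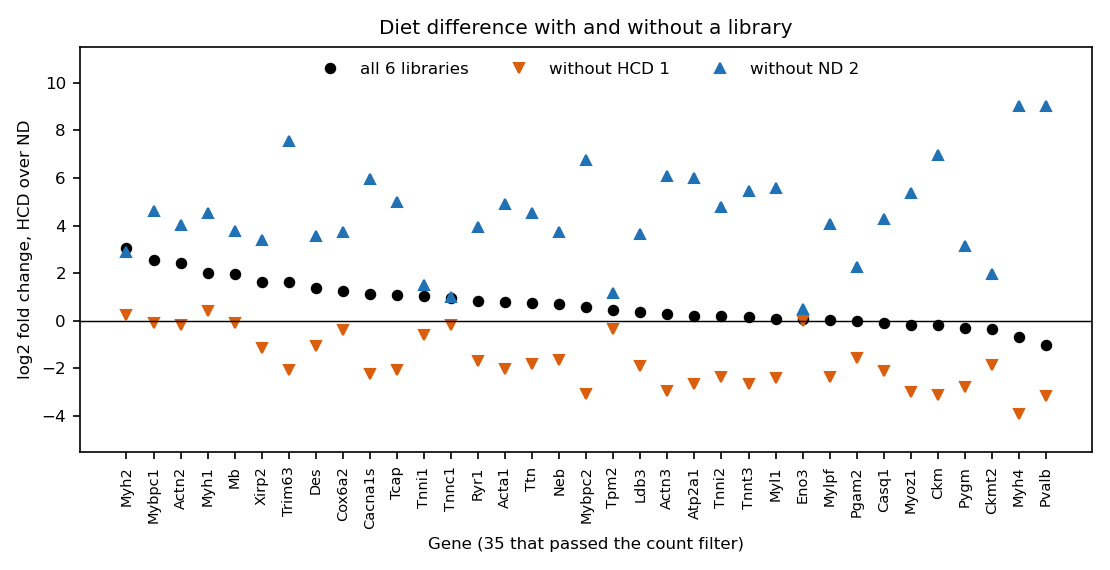
Log2 fold change (HCD over ND) of each of the 35 tested muscle genes with all 6 libraries (circles), without HCD 1 (triangles pointing down) and without ND 2 (triangles pointing up), in order of the first. The median is 0.57 with all libraries, -1.90 without HCD 1 and 4.40 without ND 2.

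Further muscle genes outside the 41, from lists of sarcomere, calcium and metabolic genes, showed the same libraries at the top. The 25 further sarcomere genes summed to 457, 63.6 and 17.8 CPM in HCD 1, HCD 2 and HCD 3, against 15.7, 244 and 23.3 CPM in ND 1, ND 2 and ND 3. HCD 1 and ND 2 exceeded the 4 other libraries in 22 of the 25. The 2 of highest mean CPM, a scale without gene length, were Cmya5 (myospryn, 67.8 CPM in HCD 1 and 44.8 in ND 2) and Nrap (a myofibril assembly protein, 56.4 and 21.8). Of 21 tested, 0 were called (0.0% of all genes) and 1 had an unadjusted p under 0.05 (5.3% of all genes). Their log2 fold change was positive for 19 and negative for 2 (53.0% of all genes positive), with a median of 0.95. The 13 further calcium genes, led by Srl (sarcalumenin, 34.7 CPM in HCD 1 and 26.6 in ND 2) and Trdn (triadin, 33.4 and 24.8), were positive in 13 of 13, against the same 53.0%, with a median of 0.34 and 0 called. The 14 further metabolic genes, led by Pfkm (muscle phosphofructokinase, 74.8 and 65.4 CPM) and Car3 (carbonic anhydrase 3, 174 and 45.7 CPM), had 5 positive and 5 negative of 10 tested, against the same 53.0% positive, a median of 0.03 and 0 called.

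Most slow fibre genes outside the 41 were also more abundant in HCD 1 than in ND 2. Myl2, the slow and cardiac regulatory light chain, had 69, 2 and 0 counts in the HCD tumours, against 0, 0 and 0 in the ND tumours. Casq2, the slow and cardiac calsequestrin, had 7.34 CPM in HCD 1 and 1.86 in ND 2, and Myl3, the slow essential light chain, 2.22 and 0.189 CPM. Myoz2, the slow calcineurin-binding Z-disc protein, had 6.37 and 1.14 CPM in the same libraries. Myh7b, a related myosin, did not show this, with 0.531 and 0.644 CPM. Atp2a2 (the calcium pump SERCA2, 698 to 896 CPM in HCD tumours and 799 to 844 CPM in ND tumours) and Tpm3 (a tropomyosin, 637 to 673 CPM and 690 to 710 CPM in the same order) are used by many cell types, and neither was high in HCD 1 or ND 2. With these 2 genes the list of 7 summed to 1355, 1411 and 1572 CPM in the HCD tumours, against 1491, 1520 and 1544 CPM in the ND tumours.

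Genes of developing or repairing muscle were not uniform. Myh3, the embryonic myosin, had 22.2, 0.725 and 0.293 CPM in the HCD tumours, against 0.313, 2.23 and 0.826 CPM in the ND tumours. Myh8, the perinatal myosin, had 16.0, 1.64 and 0.293 CPM in the HCD tumours, against 0.0894, 2.80 and 0.291 CPM in the ND tumours. Both myosins were highest in HCD 1, whereas Actc1, the cardiac actin also used in developing skeletal muscle, was higher in ND 2 (13.5 CPM) than in HCD 1 (3.62 CPM). The satellite cell gene Pax7 stayed at or below 0.193 CPM in all 6 libraries. The 10 genes of this list, led by Mef2c (34.5 CPM in HCD 1 and 23.1 in ND 2), summed to 84.8, 24.3 and 10.6 CPM in the HCD tumours, against 10.2, 45.0 and 12.8 CPM in the ND tumours. All 5 tested genes were positive, against 53.0% of all genes, with a median of 1.05, and 0 were called, as were 0.0% of all genes.

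Markers of other tissues were set beside the muscle genes, and their part in the result was not tested. The 9 smooth muscle genes, led by Smtn and Acta2, summed to 144 to 203 CPM in HCD tumours and 154 to 179 CPM in ND tumours, without a peak in HCD 1 or ND 2, although Synpo2 alone was highest in these libraries (22.0 and 13.6 CPM). The 10 cardiac genes, led by Tnnt2 and Myl4 (11.6 CPM in HCD 1), summed to 39.0 to 45.6 CPM in HCD tumours and 36.4 to 48.4 CPM in ND tumours. Among the cardiac genes Nppa, Myl7 and Myh6 were at or near 0, with at most 0.193 CPM in any library. Tnni3 was higher, with 1.30, 1.60 and 0.585 CPM in the HCD tumours, against 0.179, 0.568 and 0.923 CPM in the ND tumours. Mybpc3 had 0.241 to 0.439 CPM in HCD tumours and 0.291 to 0.447 CPM in ND tumours. Brown fat genes, led by Ppargc1a and Prdm16, summed to 3.53 to 4.54 CPM in HCD tumours and 3.597 to 5.10 CPM in ND tumours, with Ucp1 at most 0.146 CPM. Genes of the neuromuscular junction summed to 39.5 to 54.1 CPM in HCD tumours and 48.4 to 58.2 CPM in ND tumours, mostly from the widely expressed Chrnb1. Chrna1, the muscle acetylcholine receptor subunit, followed the muscle genes with 3.91 CPM in HCD 1 and 2.04 in ND 2. HCD 1 and ND 2 exceeded the remaining libraries in 4 of the 7 junction genes, namely Chrna1, Chrnd, Chrng and Chrne. Chrne had only 4 counts in HCD 1 and 9 in ND 2.

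White fat markers moved partly with muscle. The 10 genes, led by Fabp4 and Lipe, summed to 71.0, 96.4 and 38.1 CPM in HCD 1, HCD 2 and HCD 3, against 53.8, 59.9 and 56.8 CPM in ND 1, ND 2 and ND 3. Adipoq, the fat cell hormone adiponectin, had 1.50, 1.31 and 0.195 CPM in the HCD tumours, against 0.0447, 1.40 and 0.0486 CPM in the ND tumours. Cfd (adipsin) had 8.25, 10.2 and 0.731 CPM in the HCD tumours, against 1.43, 7.65 and 0.680 CPM in the ND tumours. Both were higher in HCD 1, HCD 2 and ND 2, the 3 libraries of highest muscle content, than in the other 3. Fabp4 and Lipe did not show this. Fabp4 had 35.2, 56.2 and 23.8 CPM in the HCD tumours, against 37.6, 27.0 and 37.6 CPM in the ND tumours. Lipe had 14.7, 19.5 and 11.7 CPM, against 12.4, 15.8 and 16.8 CPM in the same order. Plin4, Plin1, Cidec and Retn were also higher in HCD 1, HCD 2 and ND 2 than in the other 3 libraries. Retn had 3 counts in HCD 2 and 3 in ND 1, so its order is uncertain. Pck1 and Lep did not show the pattern, being lower in HCD 1 than in ND 1. By a stricter criterion, HCD 1 and ND 2 both above the other 4 libraries, 2 of the 10 genes qualified (Adipoq and Retn). Epidermal genes, led by Krt5 and Krt14, were at 7.24, 6.48 and 30.7 CPM in the HCD tumours, against 5.90, 8.10 and 5.15 CPM in the ND tumours. Krt5 and Krt14 were highest in HCD 3 (11.8 and 13.4 CPM), a library of low muscle content. Krt10 was not, with 3.12 CPM in HCD 3, 3.04 CPM in HCD 1 and 3.35 CPM in ND 3.

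**Figure D5:**
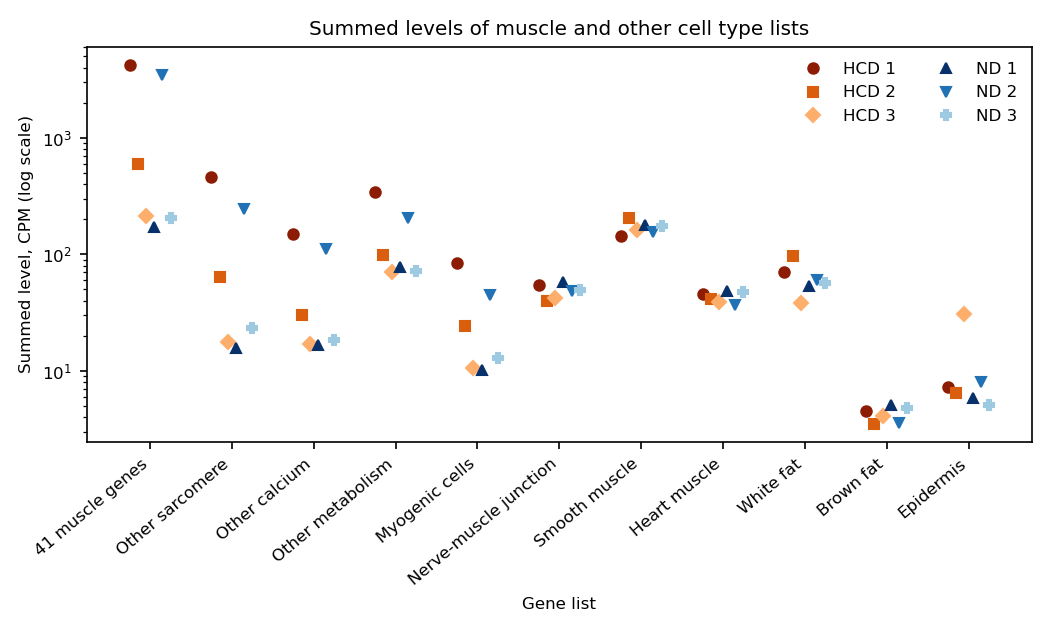
Summed level (CPM, log scale) of the 41 muscle genes and of each list of other muscle and tissue marker genes in each tumour, with 1 point per library. The 41 genes and the further sarcomere, calcium, metabolic and myogenic lists are highest in HCD 1 and next in ND 2, while the neuromuscular junction, smooth muscle, heart muscle and brown fat lists are not. The junction and heart sums come mostly from Chrnb1 and Tnnt2, and hide other genes of these lists that follow muscle.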

How the data were processed

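RNA of 3 HCD and 3 ND tumours was sequenced as paired-end TruSeq libraries, per the labels' protocols. The authors deposited raw counts per gene and FPKM values side by side. The submitters' processing notes name the mm10 build, CASAVA 1.8, TopHat2 2.0.9, HTSeq and edgeR, with no order. Deposited FPKM values equalled the count over the library total and 1 length per gene (within 1% for 100% of genes). How strand and multiply matching reads were handled, and the annotation release, are not given in the sources used here, so overlapping and near-identical genes are uncertain. In GENCODE M21, 18 of the 41 share exon bases with another gene, 3 of them over 20%. For Mb, 1 of these 3, the gene of largest overlap is not among those counted.

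From the counts, CPM was computed over TMM-scaled totals. Diet was tested with edgeR 4.0.16 (R 4.3.3), quasi-likelihood F-test, diet as the only term, after filterByExpr (minimum count 10, minimum total 15), with Benjamini-Hochberg adjustment over 15539 genes and a threshold of 0.05. The SE is the absolute log2 fold change over the square root of F. DESeq2 1.42.0, limma 3.58.1 on FPKM (pseudocounts 1 and 0.1) and voom, other scalings and filters, a replicate block and the omission of each library were alternatives. The test was run on simulated data with known changes first. That simulation gave every gene the same spread, so it does not show how well changes in genes as variable as these would be found. Coordinates are GRCm38 (GENCODE M21), which the mm10 build shares, and promoters are from RefSeq.

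The 41 genes and all gene lists were chosen with earlier results of these data known. Values in every library are given for the 2 highest genes by mean FPKM of each role and for each fast and slow pair. The 2 highest genes by mean CPM of each other list are named, and other genes were singled out after their values were seen. Levels of different genes are compared as FPKM. Sums and list ranks in CPM and myosin shares of counts are not scaled by length. The labels state no pairing, and none was used in the main test. Deviations of same-numbered tumours from their diet means had r over genes of -0.31, 0.14 and 0.08. The libraries of a diet share that mean, so their deviations are tied to each other and cannot exclude a pairing.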

Additional observations from a re-analysis of the deposited data

How the results depend on the processing

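The number of muscle genes called was 0 under every alternative run (DESeq2 gave no p-value for 4 of the 35), and the direction of the fitted changes rested on single libraries. Leaving out 1 library at a time, the count of called genes ran 0 to 0. The median log2 fold change of all tested muscle genes lay between -1.90, with HCD 1 left out, and 4.40, with ND 2 left out. It was -2.65 to 5.52 for fast and -0.17 to 3.12 for slow genes. The slow genes that passed the filter changed with the library left out. The lower end, without HCD 1, covers 3 slow genes and the upper end, without HCD 3, covers 5, so the range is not of 1 fixed set. The HCD over ND ratio of summed CPM ran from 0.317 to 8.83, and that of the fast over slow ratio from 0.216 to 4.90. With no filter on low counts, the slow median was 2.55, because Myh7 and Tnnt1 were then tested. Log2 fold changes without 1 library ran from -2.02 to 4.89 for Acta1, -2.66 to 5.46 for Tnnt3, -2.96 to 6.09 for Actn3, -1.07 to 3.57 for Des, -2.65 to 6.00 for Atp2a1, -3.14 to 9.01 for Pvalb, -0.11 to 0.48 for Eno3 and -3.12 to 6.96 for Ckm. They ran from -2.07 to 7.53 for Trim63, -3.92 to 9.01 for Myh4, -2.35 to 4.80 for Tnni2, -0.60 to 1.51 for Tnni1, -0.17 to 1.32 for Tnnc1, -3.07 to 6.76 for Mybpc2 and -0.088 to 4.60 for Mybpc1. Of 181 other single-gene values 158 kept their direction and 23 reversed, and the cause was not tested. With the replicate block, which the design does not ask for, 0 genes were called, the median was 0.41, and the sign turned for Acta1 (-0.0099), Atp2a1 (-0.025), Pvalb (0.70), Ckm (0.45), Myh4 (0.50), Tnni2 (-0.12) and Mybpc2 (-0.076). Tumours did not correlate best with their own number, since HCD 1 deviated with ND 2 (0.48) and HCD 3 with ND 1 (0.54). Pvalb, Ckm and Myh4 turned to 2.05, 1.44 and 2.18 with voom, to 0.39, 0.84 and 0.58 on log2(FPKM + 1) with and without a filter, and to 1.39, 1.50 and 1.52 on log2(FPKM + 0.1). Without HCD 1 and ND 2, chosen after seeing the data, Ckm was at 4.02, Myh4 at 5.75, Tnni1 at -0.12 and Tnnc1 at -0.13. Low counts in HCD 3, ND 1 and ND 3 limit what can be said of muscle genes there.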

Other observations

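Among genes outside all lists, 51 had the same order of the 6 libraries as the summed muscle genes (HCD 1, ND 2, HCD 2, HCD 3, ND 3, ND 1), 50 of them with at least 1 CPM in the highest library. Of the 41 muscle genes themselves 1 had exactly this order, since the lowest libraries lie close together. The 8 such genes with the largest ratio of highest to lowest library were Ano5, Alpk3, Asb5, Abra, Cryab, Asb11, Nexn and Adck3. Ano5, a membrane protein whose loss causes human muscular dystrophy, had 6.998, 0.677 and 0.195 CPM in HCD 1, HCD 2 and HCD 3, against 0, 5.87 and 0.0486 CPM in ND 1, ND 2 and ND 3. Cryab, a small heat shock protein that binds desmin, had 25.7, 7.88 and 2.39 CPM in the HCD tumours, against 1.21, 9.96 and 2.23 CPM in the ND tumours. Nexn, an actin-binding Z-disc protein, had 20.1, 3.43 and 2.10 CPM in the HCD tumours, against 1.25, 12.6 and 1.60 CPM in the ND tumours. The likeness is the order of 6 libraries alone. Log2 fold changes of these genes, HCD over ND, ran from 0.39 for Ano5 to 1.54 for Alpk3, and none passed the adjusted threshold in edgeR (adjusted p 0.842 to 0.967).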
